A study of Pan troglodytes and Macaca mulatta with 12 samples.

Results

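The genes described here were read on a single exon. A gene was taken when exactly 1 exon name was listed for it over the files of 12 libraries, and 4087 of the 16903 genes with any count met that rule, each giving 1 region. The libraries are RNA sequencing of lymphoblastoid cell lines, which are B lymphocytes made to grow continuously in culture. The lines came from 6 chimpanzees (of which 3 were female and 3 male) and 6 rhesus macaques, called macaques from here on (of which 2 were female and 4 male), 1 line and 1 library per individual, untreated as far as the labels say. Human lines named in the series design were not analysed here. Each line of a file names the gene and exon and places it on a chromosome, in 1 set of coordinates for both species. The genome build, not given in the sources used here, is that of the files, and so are the positions. The identifiers do not come with gene symbols, and 0 of them matched the 2 name tables at hand. Regions are therefore described by position, and the labelled cell type was not checked against B cell markers.

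Most mammalian genes are split into several exons that are joined after transcription, and their level is read as a sum over those exons. Some genes have no intron at all, among them most histone genes, olfactory receptor genes and many genes for G protein-coupled receptors. Others are retrocopies, made when a spliced messenger RNA is copied back into the genome, and such a copy can share nearly all of its sequence with its parent gene. A gene can also appear on 1 exon because the exon set keeps only 1 of its exons or because no read fell on the others. The rule used here does not separate these kinds. How reads that match several places were counted is also not stated, so the level of a region with a near-identical copy elsewhere is uncertain.

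Library totals ran from 1434241 to 4751954 counts. Chimpanzee replicate 1 had the smallest total, and exons of several-exon genes on chromosome 19 took 3.96% of its counts, against 6.13% to 7.56% in the other chimpanzee libraries and 7.60% to 9.84% in macaque. The low end of the macaque range was held by replicates 5 and 6. The difference between the species in this chromosome 19 share was 6.44% ± 1.32 against 8.85% ± 0.934 (SD, n = 6 per species, two-sided exact permutation test, p = 0.00216, the smallest that 6 against 6 can give). Its part in the results below was not tested. Leaving out these 3 libraries gave the counts set beside the main ones below.

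Most single-exon genes were barely read. Of the 4087, 1031 had 1 count over all libraries, 1630 had 1 to 3 counts and 2252 had no more than 10, while 854 had a count in all 12 libraries. Counts were found in both species for 2303 genes, in chimpanzee alone for 824 and in macaque alone for 960, and the median total of the genes read in 1 species was 1 count. The exons ran from 26 to 14861 bases with a median of 287, longer than the median of 136 bases for exons of genes with several counted exons. The file numbers the exon as 1 for 3483 of these genes. For the other 604 the number is above 1, so the exon set numbers at least 1 earlier exon on which no read was listed. Another gene's exon overlapped 45 of the regions, and their reads cannot be assigned without strand.

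Summed over all single-exon genes, no difference between the species passed the test. Their share of a library's counts was 6.04% ± 0.498 in chimpanzee and 6.3% ± 0.546 in macaque (SD, n = 6 per species), a difference of -0.26 percentage points (exact permutation test, two-sided, p = 0.374). Leaving out 1 library at a time it lay between -0.42 and -0.14. Chimpanzee libraries ran from 5.43% to 6.63% and macaque libraries from 5.49% to 6.73%, so the groups overlapped almost fully. Without chimpanzee replicate 1 and macaque replicates 5 and 6 the difference was -0.50 percentage points (exact permutation test, two-sided, p = 0.0476). Macaque replicates 5 and 6 held the lowest shares of their species, 5.49% and 5.71%, against 6.58% to 6.73% in the other macaque libraries. Leaving them out widens the gap by itself. Leaving out chimpanzee replicate 1, at 5.51%, works the other way. The set left out was not fixed in advance, so this p does not decide whether the species differ. With each library thinned to the smallest total, 1604 ± 55.0 single-exon genes had a count in chimpanzee and 1626 ± 63.8 in macaque (exact permutation test, two-sided, p = 0.532). Of all counts on single-exon genes, 31.9% lay on the 10 with most counts.

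The highest level of all was at an exon of 395 bases (chromosome 14, 105391493 to 105391887). It ran from 876 to 12210 CPM (counts per 1000000 counts of a library after scaling) in chimpanzee with a median of 5651, and between 2771 and 7371 CPM with a median of 4814 in macaque. The lowest and the highest of the 12 libraries were both chimpanzee, and the difference between the species did not pass the test (log2 difference of 0.37, chimpanzee minus macaque, with a standard error, SE, of 0.53 and an edgeR adjusted p = 0.593). Per kilobase of exon this was 16034 CPM in chimpanzee and 12438 CPM in macaque, the highest level per length among the 5 most abundant single-exon genes. The next, an exon of 2087 bases (chromosome 6, 30799096 to 30801182), averaged 3555 ± 864 CPM in chimpanzee against 2929 ± 600 in macaque (SD, n = 6 per species, edgeR adjusted p = 0.270). An exon of 287 bases (chromosome 2, 84987024 to 84987310) had 2061 ± 745 and 2367 ± 1574 CPM, again without a call (edgeR adjusted p = 0.711).

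Of the 5 most abundant, 2 differed between the species. An exon of 2684 bases (chromosome 16, 55954917 to 55957600) ran from 919 to 8498 CPM in chimpanzee (median 2979) and between 15.8 and 533 CPM in macaque (median 112). Every chimpanzee library lay above every macaque library, although each species spread widely, and the log2 difference was 4.26 (SE 0.86, edgeR adjusted p = 0.00109), or 4.96 without macaque replicate 3. An exon of 1815 bases (chromosome 19, 12763310 to 12765124) was lower in chimpanzee, at 1044 ± 589 against 2363 ± 1030 CPM (SD, n = 6 per species, log2 difference -1.18, edgeR adjusted p = 0.0268). These groups overlapped, and the call was lost without chimpanzee replicate 3, 4 or 6 or macaque replicate 1 or 4, where the edgeR adjusted p lay between 0.0530 and 0.0602. With males only it was 0.241.

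The species test addresses which genes differ in assigned reads between lymphoblastoid cells of chimpanzee and macaque. Whether reads of each species align equally well to an exon was not tested. Throughout, a level or a difference therefore describes assigned reads, not RNA alone. The test needs enough counts, and 790 single-exon genes (19.3% of them) passed the filter, against 67.5% of genes with several exons. Those 790 held 96.5% of the counts on single-exon genes. With an adjusted p under 0.05 in edgeR's quasi-likelihood test, 165 were higher and 242 lower in chimpanzee, together 407 or 51.5% of those tested. Over all 9440 tested genes 48.2% were called, 24.7% higher and 23.5% lower in chimpanzee. The call rate of single-exon genes was thus near that background, and the calls were split more towards lower levels in chimpanzee, at 59.5% of calls against 47.8% for several-exon genes. This lean was not particular to single-exon genes. With 2 counted exons 137 genes were higher and 205 lower of 713, and with 3 exons 127 and 210 of 725. The lower calls were 28.8% and 29.0% of those tested, beside 30.6% of single-exon genes. The median log2 difference was -0.19 in the 790 and 0.04 over all tested genes. Setting genes at 0 in 1 species to their bound could not move this median, as they stay far from it on the same side. In bulk RNA, fewer cells of a kind and less RNA per cell cannot be told apart. Without chimpanzee replicate 1 and macaque replicates 5 and 6, 848 were tested, 186 of them higher and 248 lower in chimpanzee. The share over all genes in that fit is not given here, and the 48.2% is not its background.

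The filter has a bearing on these counts, since a gene almost unread in 1 species enters only when it is high in the other. There were 79 tested single-exon genes with a mean under 2 CPM in 1 species, and all 79 were called. Among the other 711, 328 were called (46.1%), 127 of them higher in chimpanzee (17.9% higher and 28.3% lower). Over all tested genes with at least 2 CPM in both species 45.6% were called, 23.3% higher and 22.3% lower. The call rate of single-exon genes was thus near the background at this cut too. Full separation, with the highest library of 1 species under the lowest of the other, was seen in 231 of the 790 (29.2%), 99 higher and 132 lower in chimpanzee. The background over all tested genes was 27.1%, with 13.3% higher and 13.8% lower.

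Large differences were counted next. A test against a difference of 2-fold passed for 189 of 790 (23.9%), 85 higher and 104 lower in chimpanzee, where the background over all tested genes was 17.2% (8.74% higher and 8.51% lower). Without the 3 libraries named above it passed for 238 of 848, 113 higher and 125 lower. No share over all genes is given here for that fit, and the 17.2% is not its background. In the fit of all 12 libraries, genes just outside the rule, with exactly 2 counted exons, stood between, at 20.9% of 713. Called differences of at least 8-fold were found in 47 single-exon genes higher and 53 lower in chimpanzee, 12.7% of those tested, against 7.43% over all tested genes (3.76% higher and 3.67% lower). A cut at 2 CPM in both species takes out genes almost unread in 1 species. All 79 such single-exon genes were called, so the cut by itself lowers the shares that follow. The part of these genes in the gap was not tested. Among genes of at least 2 CPM in both species, 112 of 711 single-exon genes were beyond 2-fold (15.8%, 48 higher and 64 lower), against 13.0% of 8276 several-exon genes. At least 8-fold were then 18 higher and 15 lower, 4.64% against 3.29%. Over all called genes, without this cut, the median difference was 3.34-fold for single-exon genes and 2.46-fold for several-exon genes. Genes almost unread in 1 species are part of these medians.

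**Figure D1:**
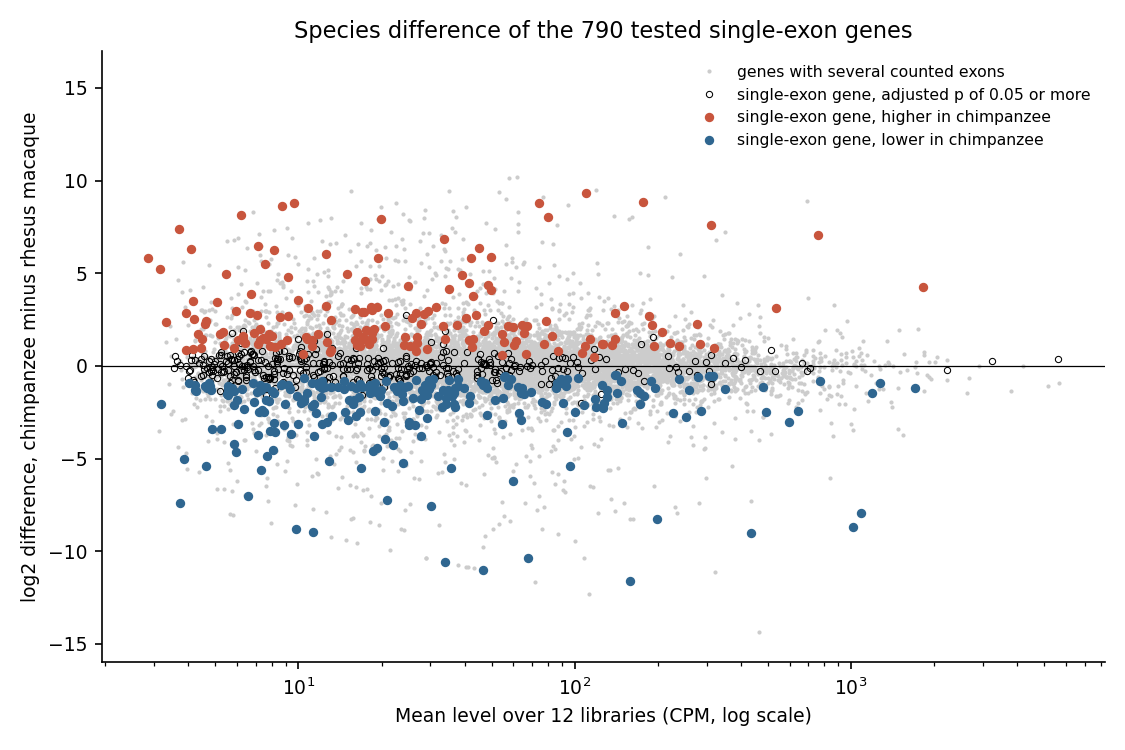
Mean level over the 12 libraries (CPM, log axis) against the log2 difference, chimpanzee minus macaque, for the 790 tested single-exon genes (circles) and the 8650 tested several-exon genes (grey). Filled circles mark the 165 single-exon genes higher and the 242 lower in chimpanzee at an edgeR adjusted p under 0.05, and differences of both signs appear at low and high levels.

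Among single-exon genes fully separated between the species and above 2 CPM in both, the difference furthest towards chimpanzee was at ENSG00000105193 on chromosome 19 from 44616002 to 44616241. This exon of 240 bases ran from 427 to 820 CPM in chimpanzee (median 604) and between 1.22 and 5.48 CPM in macaque (median 2.92). The lowest chimpanzee library was thus far above the highest macaque library, with a log2 difference of 7.58 (SE 0.35, edgeR adjusted p = 6.10e-09). The nearest tested gene, 8.01 kb away with 15 counted exons, had 243 and 251 CPM with no call (edgeR adjusted p = 0.917).

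ENSG00000137154, an exon of 1464 bases (chromosome 9, 19368772 to 19370235), showed the same kind of separation at a higher level. Chimpanzee libraries lay between 1222 and 1889 CPM (median 1518) and macaque libraries between 4.88 and 19.5 CPM (median 8.93). The counts were 24768 in chimpanzee and 213 in macaque, and the log2 difference was 7.07 (SE 0.36, edgeR adjusted p = 1.47e-08). Its neighbour 4.63 kb away, with 28 counted exons, stood at 59.3 and 59.1 CPM in the species in that order (edgeR adjusted p = 0.990).

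Longer exons followed. An exon of 2720 bases (chromosome 3, 115010872 to 115013591) ran from 32.8 to 141 CPM in chimpanzee, with macaque libraries between 1.51 and 5.98 CPM, a log2 difference of 4.88 (edgeR adjusted p = 2.13e-06). One of 2325 bases (chromosome 12, 105155933 to 105158257) ran from 6.76 to 358 CPM in chimpanzee, with a median of 24.2, against 1.83 to 5.48 CPM in macaque. Chimpanzee replicate 5 alone held the value of 358 CPM, the next library had 54.4 CPM, and without replicate 5 the log2 difference was 2.72 instead of 4.49. By contrast, an exon of 2919 bases (chromosome 9, 38385737 to 38388655) was nearly level among chimpanzees, at 38.5 to 52.5 CPM, and at 0 to 4.85 CPM in macaque (log2 difference 4.29, edgeR adjusted p = 5.85e-06). An exon of 852 bases (chromosome 8, 72918434 to 72919285) averaged 92.4 ± 56.8 CPM in chimpanzee against 4.47 ± 2.82 in macaque (SD, n = 6 per species, edgeR adjusted p = 2.16e-05).

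Towards macaque, the difference furthest out was at ENSG00000208978, an exon of 410 bases (chromosome 5, 123018501 to 123018910). Its chimpanzee libraries ran from 1.37 to 10.5 CPM (median 4.87) and its macaque libraries from 956 to 3748 CPM (median 1877), for a log2 difference of -8.69 (SE 0.59, edgeR adjusted p = 1.73e-07). ENSG00000115523, an exon of 188 bases (chromosome 2, 85779198 to 85779385), was spread unevenly in chimpanzee, from 0 to 39.7 CPM with a median of 1.99. In macaque it ran from 1352 to 3061 CPM (median 1963), and the log2 difference was -7.93 (SE 0.99, edgeR adjusted p = 2.63e-05). Without chimpanzee replicate 4, which held the 39.7 CPM, it was -9.67. Per kilobase of exon the macaque level was 11518 CPM here and 4936 CPM at the exon on chromosome 5.

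The next 4 were less abundant. On chromosome 12 from 49604801 to 49605586, an exon of 786 bases ran from 0.196 to 10.9 CPM in chimpanzee, with macaque libraries between 117 and 323 CPM (log2 difference -5.42, edgeR adjusted p = 1.48e-05). An exon of 679 bases (chromosome 11, 133599771 to 133600449) held a narrow range in chimpanzee, 3.08 to 6.01 CPM, against 26.7 to 70.8 CPM in macaque (log2 difference -3.22, edgeR adjusted p = 2.01e-06). A gene of 33 counted exons begins or ends 0.135 kb from it and was not called, with 143 and 150 CPM (edgeR adjusted p = 0.840). The exon of 241 bases (chromosome 22, 18484947 to 18485187) had 2.24 ± 2.40 and 39.1 ± 22.8 CPM, and that of 1362 bases (chromosome 1, 65222990 to 65224351) had 3.62 ± 3.64 and 51.8 ± 24.3 CPM in chimpanzee and macaque (SD, n = 6 per species, edgeR adjusted p = 0.000126 and 0.000309). At the first of these the log2 difference was -3.94, and -4.80 without chimpanzee replicate 6. Above 1600 bases the smallest p was at an exon of 5670 bases (chromosome 1, 154308428 to 154314097), with 7.67 to 19.4 CPM in chimpanzee and 59.2 to 104 CPM in macaque (log2 difference -2.66, edgeR adjusted p = 2.88e-06). A gene of 13 counted exons 5.27 kb away was higher in chimpanzee instead, at 1577 against 163 CPM (edgeR adjusted p = 0.00109).

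**Figure D2:**
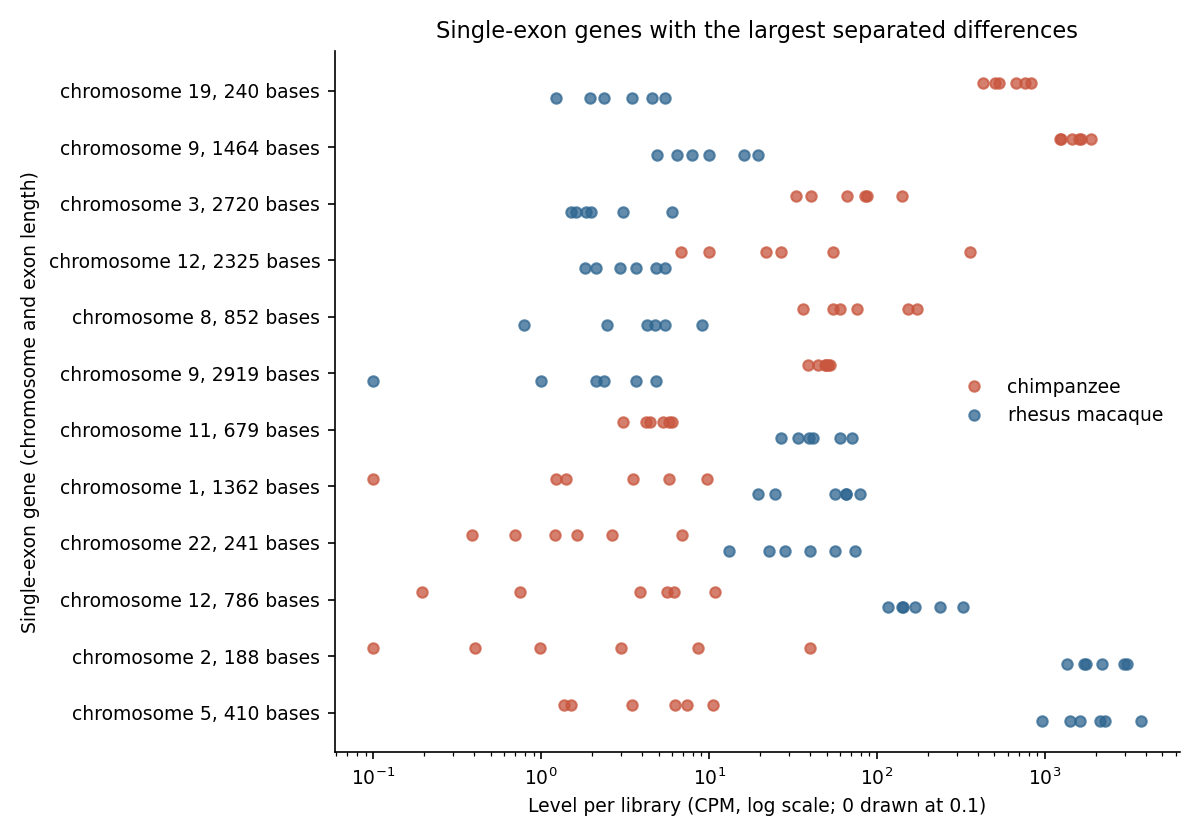
Level in each of the 12 libraries (CPM, log axis, with 0 drawn at 0.1) for the 6 single-exon genes furthest higher and the 6 furthest lower in chimpanzee among those fully separated and above 2 CPM in both species, each named by chromosome and exon length. The exon of 188 bases on chromosome 2 has the widest spread in chimpanzee on this axis, from 0 to 39.7 CPM.

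Some single-exon genes were read in 1 species with next to nothing in the other. The smallest p-values of the length classes described below fell mostly on such genes. On chromosome 14 from 23056786 to 23056935, an exon of 150 bases had 6145 counts in macaque, 115 to 488 CPM, and 1 count in chimpanzee. The ratio of these counts at equal depth was 5978, with a counting interval from 1072 to 236145 (exact, 95%, covering counting error alone, as no molecular identifiers are mentioned). An exon of 87 bases (chromosome 3, 175577828 to 175577914) was steady in macaque, at 106 to 161 CPM from 2391 counts, and had 1 count in chimpanzee, a ratio of 2326 with an interval from 417 to 91907. The opposite held for an exon of 135 bases (chromosome 2, 27855793 to 27855927), with 9.76 to 17.7 CPM in chimpanzee and 2 counts in all macaque libraries, a ratio of 117 with an interval from 32.1 to 974.

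With somewhat more counts on the low side, an exon of 430 bases (chromosome 2, 3605575 to 3606004) averaged 1.43 ± 1.31 CPM in chimpanzee against 869 ± 268 in macaque (SD, n = 6 per species, log2 difference -9.02, or -9.66 without chimpanzee replicate 6, edgeR adjusted p = 3.81e-08). On the X chromosome from 16402386 to 16403384, an exon of 999 bases ran from 0.385 to 3.49 CPM in chimpanzee, with macaque libraries between 83.0 and 159 CPM (log2 difference -6.23, edgeR adjusted p = 1.07e-07). The exon of 333 bases (chromosome 9, 138829480 to 138829812) had 0.201 ± 0.220 and 41.8 ± 9.65 CPM. It lies within the span of a gene of 8 counted exons, which did not pass (log2 difference -0.53, edgeR adjusted p = 0.0593). Towards chimpanzee, an exon of 418 bases (chromosome 1, 92467163 to 92467580) ran from 101.5 to 300.1 CPM, and between 0 and 1.5 CPM in macaque (log2 difference 8.02, edgeR adjusted p = 1.52e-07).

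Of the tested single-exon genes, 4 had 0 counts in macaque and 5 had 0 in chimpanzee, and all 9 were called, as the filter nearly fixes. A floor of 3 counts over the 6 libraries of a species was used for their folds. The exon of 452 bases (chromosome 8, 143924813 to 143925264) ran from 29.8 to 138 CPM in macaque, at least 519-fold higher than the chimpanzee floor. An exon of 930 bases (chromosome 1, 110061482 to 110062411) ran from 21.4 to 138 CPM there, at least 378-fold higher, and one of 220 bases (chromosome 1, 46343215 to 46343434) from 13.3 to 32.3 CPM, at least 126-fold higher. In chimpanzee the levels were lower. The exon of 1254 bases (chromosome 6, 49861606 to 49862859) ran from 7.67 to 27.4 CPM, at least 110-fold above the macaque floor. An exon of 186 bases (chromosome 3, 25340972 to 25341157) ran from 12.5 to 22.3 CPM, at least 99.6-fold above it. For the exon of 99 bases (chromosome 10, 106012727 to 106012825) the range was 5.65 to 18.1 CPM and the bound 71.2-fold. The matching of exons across the species is not described in the sources used here, so a count of 0 says only that the files list no read there.

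At the other end stood single-exon genes at nearly the same level. An exon of 2238 bases (chromosome 6, 111321372 to 111323609) had 59.8 ± 26.1 CPM in chimpanzee and 60.5 ± 17.6 CPM in macaque (SD, n = 6 per species, log2 difference -0.03 with a standard error of 0.28). On chromosome 9 from 4701158 to 4703096, an exon of 1939 bases had 62.7 ± 12 and 64.1 ± 24.0 CPM (log2 difference -0.04, standard error 0.26). The exon of 1077 bases (chromosome X, 102728233 to 102729309), numbered 2 in its gene, had close means of 66.4 and 67.7 CPM over unequal spreads, 46.5 to 93.2 CPM in chimpanzee and 25.9 to 178 CPM in macaque.

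Exon length was compared in 6 classes, with limits at 100, 200, 400, 800 and 1600 bases, and a class holds its upper limit and not its lower one. Short exons were seldom tested, with 59 of 669 exons of up to 100 bases passing the filter, 143 of 953 at 100 to 200 bases, 135 of 825 at 200 to 400, 131 of 603 at 400 to 800, 143 of 591 at 800 to 1600 and 179 of 446 above 1600 bases. Calls leaned towards lower levels in chimpanzee in every class but the longest. The background over all tested genes was 48.2%, 24.7% higher and 23.5% lower. Among exons of up to 100 bases, 4 were higher and 19 lower in chimpanzee (39.0% called). At 100 to 200 bases the counts were 25 and 45 (49.0%), at 200 to 400 bases 29 and 46 (55.6%), and at 400 to 800 bases 28 and 46 (56.5%). From 800 to 1600 bases 34 were higher and 46 lower (55.9%), and above 1600 bases 45 were higher and 40 lower (47.5%). The median log2 difference went from -0.47 in the shortest class through -0.19, -0.36, -0.32 and -0.12 to 0.02 in the longest. Across the 790 genes, Spearman's rho between exon length and log2 difference was 0.0975, and between length and the size of the difference -0.0104. All points come from the same 12 libraries, and short exons rest on fewer counts.

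Levels per length fell as exons became longer in both species. The median of the tested genes was 116 CPM per kilobase in chimpanzee and 180 in macaque at up to 100 bases, 76.3 and 77.3 at 100 to 200 bases, 49.97 and 57.7 at 200 to 400 bases and 24.1 and 25.6 at 400 to 800 bases. It was 21.8 and 22.2 at 800 to 1600 bases and 14.8 and 11.7 above 1600 bases. A short exon needs a higher level per base to pass the same filter on counts.

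Summed over genes, the reads on single-exon genes were spread differently over the length classes in the 2 species. Exons of 100 to 200 bases took 9.44% ± 1.26 of the counts on single-exon genes in chimpanzee and 14.1% ± 2.34 in macaque (SD, n = 6 per species, two-sided exact permutation test, p = 0.00216, adjusted over 6 classes p = 0.00649). In exons of 400 to 800 bases the shares were 10.5% ± 0.460 and 16.4% ± 1.96 (exact permutation test, adjusted p = 0.00649). No library of 1 species reached into the range of the other in either class, the chimpanzee libraries running from 8.23% to 10.99% and from 9.99% to 11.1%, and the macaque libraries from 11.04% to 16.0% and from 14.3% to 19.8%. Exons above 1600 bases held the larger share in chimpanzee, with 37.9% ± 6.52 in chimpanzee and 30.2% ± 2.94 in macaque (exact permutation test, adjusted p = 0.0260), and here the groups overlapped. Chimpanzee replicate 1 stood highest in that class with 49.9%. Without it the difference was 5.28 percentage points instead of 7.69 (exact permutation test, adjusted p = 0.0519), and the same adjusted p came from leaving out chimpanzee replicate 3 or 4 or macaque replicate 2, 3, 5 or 6. Without chimpanzee replicate 1 and macaque replicates 5 and 6 together the difference was 4.02 percentage points in this class (adjusted p = 0.190), -3.75 at 100 to 200 bases and -6.47 at 400 to 800 bases (exact permutation test, adjusted p = 0.0476 for both). The remaining classes did not pass, with 2.60% and 3.11% at up to 100 bases, 23.4% and 22.4% at 200 to 400 bases and 16.2% and 13.8% at 800 to 1600 bases (exact permutation test, adjusted p = 0.223, 0.788 and 0.0909).

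As CPM of the whole library, exons of 100 to 200 bases summed to 5680 ± 676 in chimpanzee and 8843 ± 1391 in macaque, and exons of 400 to 800 bases to 6342 ± 558 and 10371 ± 1812 (SD, n = 6 per species, exact permutation test, adjusted p = 0.00649 for both). Exons above 1600 bases summed to 22696 ± 2852 and 19093 ± 3141 CPM, which did not pass on this scale (exact permutation test, adjusted p = 0.139). Exons of 800 to 1600 bases, at 9686 ± 1065 and 8669 ± 934 CPM, did not pass either (exact permutation test, adjusted p = 0.166). A few genes weigh heavily in such sums. The 10 single-exon genes with most counts include the exon of 188 bases on chromosome 2 and that of 410 bases on chromosome 5, both far higher in macaque, and the exon of 395 bases on chromosome 14.

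Without those 10, all classes up to 800 bases stood lower and both longer classes higher in chimpanzee. The shares of a library's 6 classes add up to the whole. A lower share in some classes thus means a higher one in others, and the class tests are not independent. The share was 13.6% ± 1.11 against 15.9% ± 1.62 at 100 to 200 bases, 14% ± 1.69 against 16.7% ± 1.26 at 200 to 400 bases and 13.7% ± 0.828 against 15.9% ± 1.41 at 400 to 800 bases (SD, n = 6 per species, exact permutation test, adjusted p = 0.0364, 0.0227 and 0.0227). From 800 to 1600 bases it was 23.3% ± 1.55 against 20.3% ± 0.958, with no overlap of the libraries, and above 1600 bases 31.5% ± 2.67 against 26.7% ± 1.93 (exact permutation test, adjusted p = 0.0130 and 0.0195). In exons of up to 100 bases the shares were 3.87% ± 1.46 and 4.57% ± 0.719 (exact permutation test, adjusted p = 0.320).

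**Figure D3:**
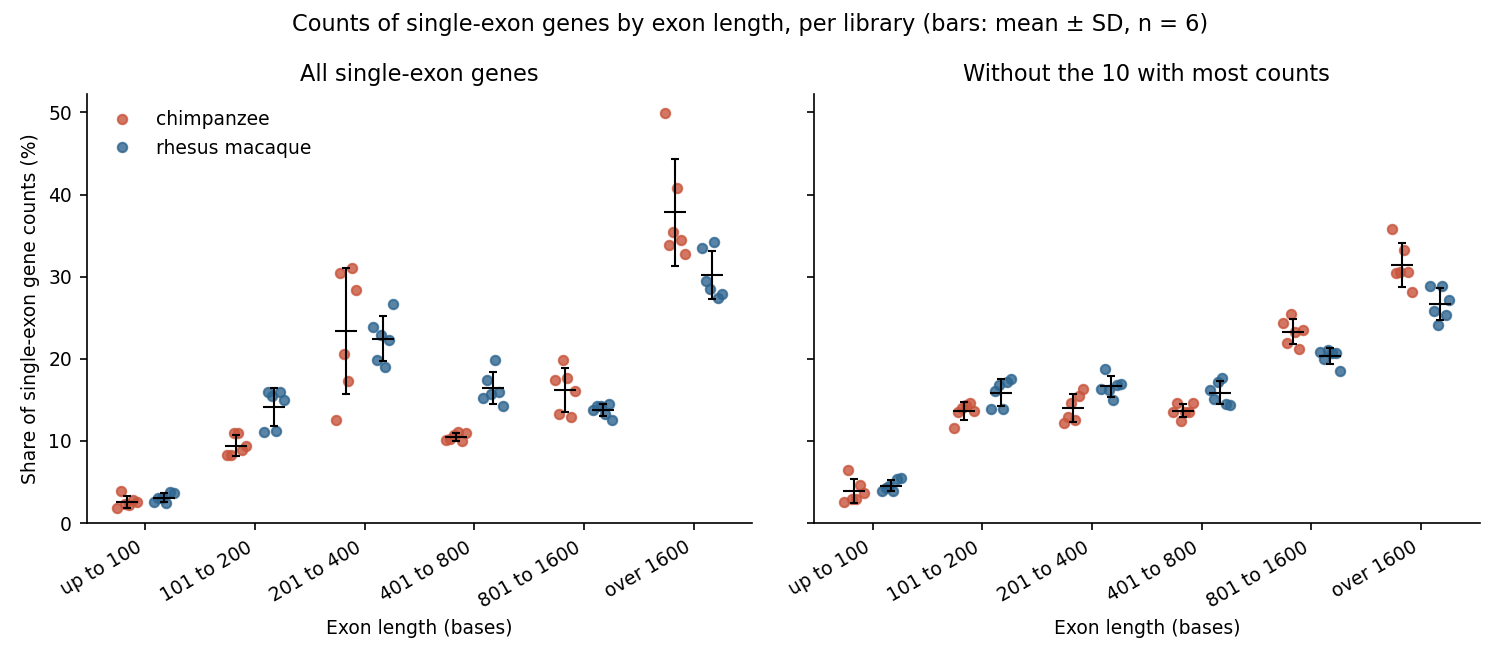
Share of the counts on single-exon genes that fell in each class of exon length, in each of the 12 libraries (points) with the mean and SD of 6 libraries per species (bars), for all 4087 genes on the left and without the 10 genes with most counts on the right. The libraries of the species do not overlap at 100 to 200 and 400 to 800 bases on the left, where chimpanzee means are 9.44% and 10.5% and macaque means 14.1% and 16.4%.

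The same shares were computed over exons of several-exon genes, to see whether the pattern was shared. There, exons of 100 to 200 bases took 35.7% ± 1.26 in chimpanzee and 34.0% ± 1.56 in macaque, and exons of 400 to 800 bases 9.26% ± 0.748 and 11.9% ± 1.32 (SD, n = 6 per species, exact permutation test, adjusted p = 0.0805 and 0.0390). The ratio of the single-exon share to the several-exon share in each library gives a test of the difference between the kinds of gene. At 100 to 200 bases its log2 value was -1.93 ± 0.186 in chimpanzee and -1.29 ± 0.219 in macaque (SD, n = 6 per species, exact permutation test, adjusted over 6 classes p = 0.0130), and it remained lower in chimpanzee without the 10 genes with most counts, at -1.39 ± 0.0976 against -1.10 ± 0.110 (exact permutation test, adjusted p = 0.00649). Without chimpanzee replicate 1 and macaque replicates 5 and 6 the log2 difference at 100 to 200 bases was -0.58 instead of -0.64 (exact permutation test, adjusted p = 0.0952). At 400 to 800 bases the values were 0.18 ± 0.102 and 0.46 ± 0.189 (exact permutation test, adjusted p = 0.0390). Without the 10 genes the order turned, to 0.57 ± 0.111 in chimpanzee and 0.41 ± 0.102 in macaque (exact permutation test, adjusted p = 0.0606), so the single-exon excess of this class in macaque rests on those genes. At 800 to 1600 bases the ratio was higher in chimpanzee, 0.34 ± 0.242 against 0.02 ± 0.102 (exact permutation test, adjusted p = 0.0390), and without the 10 genes 0.88 ± 0.0966 against 0.58 ± 0.0615 with no overlap of the libraries (exact permutation test, adjusted p = 0.00649). The calls of this ratio over all single-exon genes were lost at 400 to 800 bases on leaving out any 1 of 11 libraries, all but macaque replicate 1, and at 800 to 1600 bases any 1 of 9, all but chimpanzee replicates 2 and 5 and macaque replicate 5, with exact permutation adjusted p between 0.0519 and 0.0779. The several-exon call at 400 to 800 bases was lost in the same range of p for 9 libraries, all but chimpanzee replicate 6 and macaque replicates 5 and 6.

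A gene read on 1 exon was next set beside single exons of other genes, with each of 37417 exons tested by itself. On this footing 411 of the 790 single-exon regions were called (52.0%), 162 higher and 249 lower in chimpanzee, where the background over all tested exons was 37.7% (18.6% higher and 19% lower, edgeR adjusted p under 0.05). Exons of several-exon genes were called in 37.3% of 36627 cases. This gap depended on the mean level. Under 10 CPM 47.3% of single-exon regions and 31.7% of other exons were called, and at 10 to 50 CPM 54.4% and 40.1%. At 50 to 250 CPM the gap was narrower, at 54.1% and 48.3%. Above 250 CPM the order turned, with 25 of 50 single-exon regions called and 171 of 314 other exons (54.5%). A difference beyond 2-fold passed for 23.9% of single-exon regions and 10.8% of the other exons, with a background of 11.1% over all tested exons. The libraries of the species were fully separated for 29.4% of single-exon regions, against 18.3% over all tested exons. By mean level, full separation was more frequent in single-exon regions than in other exons up to 250 CPM, and less frequent above it.

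For other exons the calls were 773 higher and 915 lower at up to 100 bases and 471 higher and 753 lower at 400 to 800 bases, while above 1600 bases they were 510 higher and 279 lower. The gap in large differences was seen in every length class and was smallest in the longest. Beyond 2-fold were 25.4% of single-exon regions and 8.45% of other exons at up to 100 bases, 17.5% and 9.60% at 100 to 200 bases, 28.1% and 11.7% at 200 to 400 bases, and 29.8% and 15.2% at 400 to 800 bases. The shares were 29.4% and 15.4% at 800 to 1600 bases and 16.8% and 13.7% above 1600 bases. For single-exon regions the lean towards lower levels in chimpanzee also showed in the medians, between -0.52 (up to 100 bases) and 0.00 (above 1600 bases). The medians of other exons lay between -0.18 (400 to 800 bases) and 0.29 (above 1600 bases). By mean level, this lean was not particular to single-exon regions above 50 CPM. Their median was -0.23 at 50 to 250 CPM and -0.32 above 250 CPM, beside -0.29 and -0.41 for other exons. Under 10 CPM the medians were -0.07 for single-exon regions and 0.18 for other exons, and at 10 to 50 CPM -0.26 and -0.05. Exons of 1 several-exon gene share their gene's level, so the 36627 exons are not independent of each other, and no test was run across exons or genes.

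The comparison with several-exon genes was repeated at matched levels, since single-exon genes were lower, with a median of 15.9 CPM in chimpanzee against 51.6 CPM for several-exon genes. With a mean under 10 CPM, 22.1% of 244 single-exon and 23.6% of 828 several-exon genes were beyond 2-fold. With each exon tested by itself, the shares under 10 CPM were 21.2% of 226 single-exon regions and 9.02% of 15820 other exons. At 10 to 50 CPM the shares were 24.3% of 346 and 19.5% of 3259, at 50 to 250 CPM 24.7% of 154 and 13.3% of 3739, and above 250 CPM 28.3% of 46 and 13.7% of 824. The share of several-exon genes beyond 2-fold was lower among well-read genes, while that of single-exon genes was not. By exon the order of the other exons turned, with 11.5%, 14.6% and 20.7% beyond 2-fold at 10 to 50, 50 to 250 and above 250 CPM, beside 24.0%, 26.7% and 26.0% of single-exon regions.

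**Figure D4:**
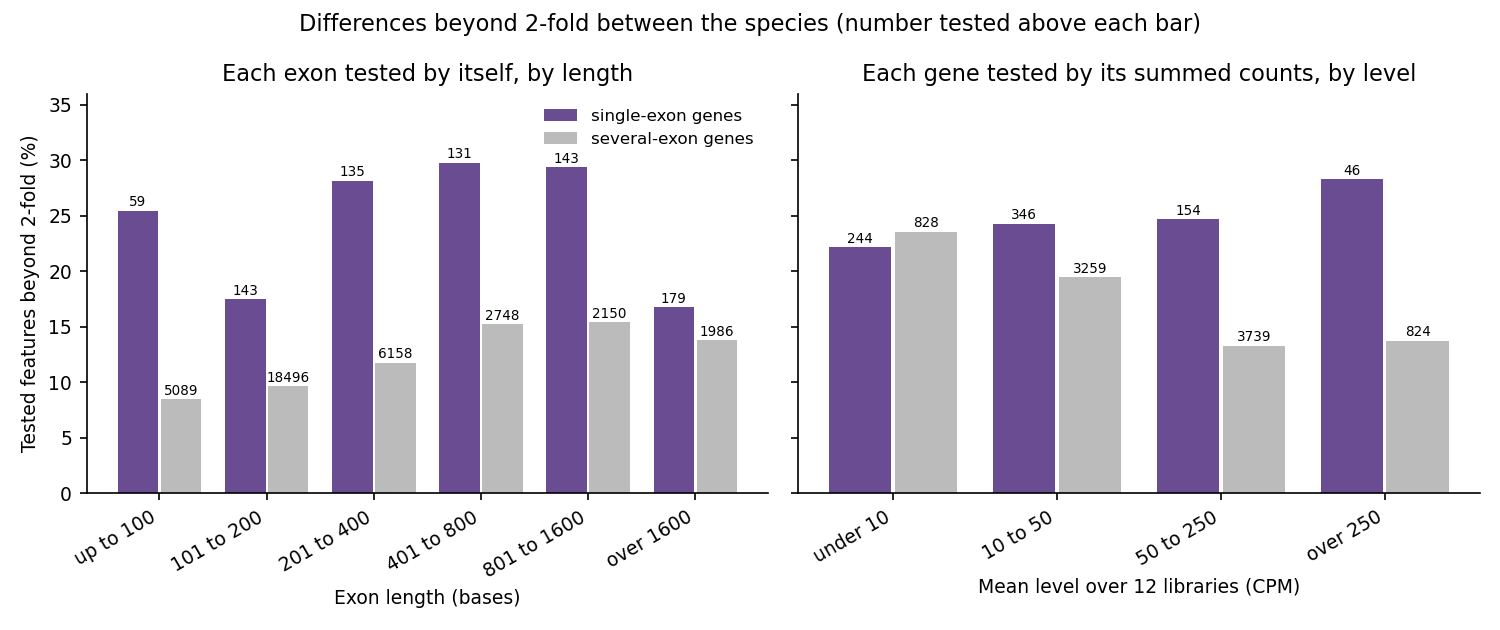
Percent of tested features with a difference beyond 2-fold between the species (edgeR glmTreat, adjusted p under 0.05), for single-exon genes and several-exon genes, with each exon tested by itself and split by exon length on the left, and with each gene tested on its summed counts and split by mean level on the right; numbers above bars are features tested. Single-exon genes range from 16.8% to 29.8% on the left, above the other exons in each class, and the kinds of gene differ little under 10 CPM on the right.

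The spread between individuals of 1 species was larger for the median single-exon gene than for the median several-exon gene. The median SD of log2 CPM over 6 libraries was 0.60 in chimpanzee and 0.53 in macaque for single-exon genes, and 0.47 and 0.44 for several-exon genes. The gap was present above 250 CPM, at 0.56 and 0.51 for 46 single-exon genes against 0.39 and 0.35 for 824 several-exon genes. Under 10 CPM the order was the other way, with 0.61 and 0.55 against 0.64 and 0.59. The depth behind each gene moves with these values, and its part in them was not tested.

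Single-exon genes stood at one end of a series when genes were ordered by the number of counted exons. The median log2 difference was -0.19 for 1 exon, -0.15 for 2 exons, -0.18 for 3 exons, 0.00 for 4 to 5 exons, 0.02 for 6 to 10 exons, 0.13 for 11 to 20 exons and 0.33 for 21 or more. In the last group of 946 genes, 325 were higher and 125 lower in chimpanzee, the reverse of the split in single-exon genes. The share beyond 2-fold was 17.2% for 3 exons, 18.4% for 4 to 5, 16.7% for 6 to 10, 14.4% for 11 to 20 and 15.1% for 21 or more, all below the 23.9% of single-exon genes.

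**Figure D5:**
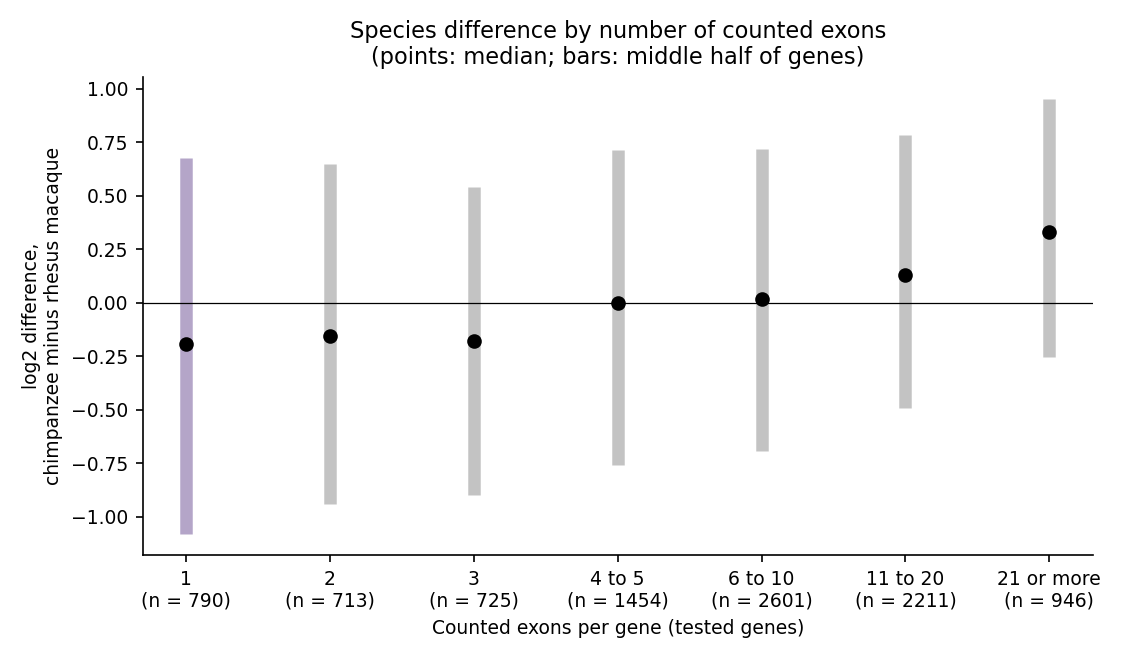
Log2 difference, chimpanzee minus macaque, of tested genes by the number of counted exons, with the median as a point and the range from the lower to the upper quartile as a bar. The median is -0.19 for the 790 single-exon genes and 0.33 for the 946 genes with 21 or more counted exons.

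Many single-exon genes lie inside other genes. The span of a several-exon gene enclosed 715 of the 4087, and 56 of the 790 tested. Of those 56, 15 were higher and 22 lower in chimpanzee (66.1%), against 150 and 220 of the 734 outside (50.4%). Over all tested genes 48.2% were called, 24.7% higher and 23.5% lower. One enclosing gene, on chromosome 7, has 26 counted exons listed over 50935 kb, the only several-exon gene listed over more than 3 Mb. Without it, by a limit set after the data were seen, 647 of the 4087 and 42 of the 790 lay inside a several-exon gene. Of those 42, 12 were higher and 15 lower in chimpanzee (64.3%), against 153 and 227 of the 748 others (50.8%). The enclosing gene was then a single tested gene in 33 cases. Both were called in 10 cases, in the same direction in 7 and in opposite directions in 3, only the single-exon gene was called in 10, only the enclosing gene in 3 and neither in 10. With the wide gene kept there were 46 pairs, 14 of them sharing it, and the single-exon gene alone was called in 19. Across the 33 pairs, Spearman's rho of the log2 differences was 0.168, and across the 46 it was 0.0798. Without strand, reads from the enclosing gene's own transcript and from the single-exon gene cannot be told apart at the exon.

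The 3 pairs called in opposite directions lie on chromosomes 20 and 9. An exon of 937 bases (chromosome 20, 14056046 to 14056982) had 2.49 CPM in chimpanzee and 6.04 CPM in macaque (log2 difference -1.33, edgeR adjusted p = 0.0208), within a gene of 9 counted exons at 88.8 and 1.20 CPM (log2 difference 6.38). An exon of 2740 bases on the same chromosome (3075167 to 3077906) was higher in chimpanzee, at 82.4 against 37.8 CPM, within a gene of 5 counted exons at 42.4 and 60.9 CPM. On chromosome 9 from 70584833 to 70586024, an exon of 1192 bases had 32.4 CPM in chimpanzee and 59.1 CPM in macaque (log2 difference -0.86, edgeR adjusted p = 0.00267), within a gene of 15 counted exons at 119 and 2.93 CPM (log2 difference 5.31). An exon of 1813 bases (chromosome 5, 14767789 to 14769601) instead moved with its enclosing gene, with log2 differences of 2.96 and 2.67 and levels of 52.0 against 6.72 CPM and 50.3 against 7.90 CPM. The pair on chromosome 5 was chosen after its values were seen.

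Over the chromosomes, single-exon genes made up 18.2% of the genes listed on chromosome 16 and 34.2% of those on chromosome X, the lowest and the highest share. More were called lower than higher in chimpanzee on 17 chromosomes, more higher on 4 (chromosomes 3, 6, 10 and 17) and as many on 2. Over all tested genes 24.7% were called higher and 23.5% lower. On chromosome 19, 9 of 70 tested single-exon genes were called higher (12.9%) and 32 lower (45.7%), beside 10.04% and 44.2% of its several-exon genes, and the medians were -0.64 and -0.58. Chromosome 11 had 5 higher (13.5%) and 18 lower (48.6%) of 37, beside 20.7% and 27.9% of its several-exon genes, with medians of -0.81 and -0.04. Chromosome 7 had 3 higher (7.89%) and 14 lower (36.8%) of 38, beside 27.8% and 18.9%, with medians of -0.29 and 0.18. The chromosomes described here were picked by no stated rule. On chromosome X 11 were higher (29.7%) and 12 lower (32.4%) of 37, beside 23.5% and 25.8%, with medians of -0.50 and 0.01. On chromosome 6 19 were higher (32.2%) and 13 lower (22.0%) of 59, beside 21.6% and 24.2%, while the medians were -0.17 and -0.02.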

How the data were processed

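Counts per exon were deposited by the authors as whole numbers, 1 file per library, with only exons of at least 1 count listed. A missing exon was taken as 0. Per the labels' protocols, adapter-ligated cDNA libraries were made, with no step named that marks strand, and read on a GAII sequencer. The aligner, counting tool, genome build and matching of exons between species were not given in the sources used here. Exon counts were summed per gene. Species was tested with edgeR 4.0.16 (limma 3.58.1, R 4.3.3): TMM normalisation, a filter with a minimum count of 10 and a minimum total of 15, a robust quasi-likelihood fit of species over all genes or all exons, glmTreat for 2-fold, and Benjamini-Hochberg adjustment with a threshold of 0.05. DESeq2 1.42.0 was an alternative. CPM used TMM-scaled library sizes, and log2 CPM a prior count of 2. Shares and thinned numbers per library were compared with exact permutation tests (scipy 1.17.1), two-sided. The fits were tested on simulated counts.

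Regions were named by rule: the 5 highest means; per direction the 6 largest differences fully separated with at least 2 CPM in both species; the smallest p per length class and direction; the 3 highest with 0 counts in the other species; and the 3 most equal above 50 CPM. The single-exon genes and these lists were chosen with earlier results of these data known. The log2 ratios of shares and the shares of several-exon genes were added after the data were seen. Each line comes from another individual, and p-values measure the spread between 1 library per individual. Gene lists and cell type markers that need symbols were not run.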

Additional observations from a re-analysis of the deposited data

Results flagged for a closer look

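Values far from the other 5 libraries of their species were looked for in the shares, the numbers of genes read and the levels of the named genes, over 78 groups, of which chance alone would mark about 1 in 20. Only 2 were marked, both from a single count in chimpanzee replicate 6 where the other 5 chimpanzee libraries had 0. The log2 CPM was -0.14 there, against -0.50 in the others, at the exon of 87 bases on chromosome 3 from 175577828 to 175577914 and likewise -0.14 at the exon of 150 bases on chromosome 14 from 23056786 to 23056935.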

How the results depend on the processing

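No paired analysis was possible because the labels give no replicate numbers: those used here follow accession order and tie no chimpanzee to a macaque. Leaving out 1 library at a time gave 380 to 431 single-exon genes called, 195 to 221 beyond 2-fold and 385 to 435 called with each exon tested by itself. The main counts were 407, 189 and 411, and the 189 lies below its range. The numbers tested in these fits are not given here. Shares over all genes or exons are given neither for these fits nor for the next ones, so the counts have no background. Without a filter on counts 849 were called and 474 lay beyond 2-fold, with 4087 tested; a minimum count of 30 gave 262 and 121, and 251 by exon, because fewer were tested. DESeq2 called 426, males alone 276 and equal depth 314. The difference in genes read at equal depth was 12.2 when 3 counts were needed, against -22.0, and -40.1 to -3.10 leaving out 1 library. As percentage points of the counts on single-exon genes, chimpanzee minus macaque, leaving out 1 library gave -0.77 to -0.35 up to 100 bases, -5.29 to -4.30 at 100 to 200, -0.58 to 3.12 at 200 to 400, -6.32 to -5.21 at 400 to 800, 1.69 to 3.10 at 800 to 1600 and 5.28 to 8.71 above. Males alone gave -5.92, -5.57 and 9.54 at 100 to 200, 400 to 800 and above 1600 bases, where 3 against 4 cannot pass after adjustment. Without the 10 genes with most counts the difference was -2.65 at 200 to 400 and 2.99 at 800 to 1600 bases, and the log2 ratio to several-exon shares was -0.16 at 200 to 400 and 0.15 at 400 to 800 bases. Chosen after the data were seen, leaving out chimpanzee replicate 1 and macaque replicates 5 and 6 gave -0.50 for the share of the library and 4.02 above 1600 bases. Of 675 alternatives for the 34 named genes, 651 kept direction and call; 6 lost the call, all at chromosome 19 from 12763310. The other 18 turned the sign of differences near 0: the gene on chromosome 2 from 84987024 (-0.40 to 0.16 leaving out 1 library), and the nearly equal ones on chromosome 6 from 111321372 (-0.28 to 0.066; males 0.15), X from 102728233 (-0.21 to 0.53; males 0.75) and chromosome 9 from 4701158 (-0.19 to 0.082; males 0.10; without the 3 libraries 0.18). Causes were not tested. At 1434241 to 4751954 counts per library, 3297 single-exon genes did not pass the filter on counts.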
